A study of Homo sapiens with 6 samples.

Results

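Cadherins join neighbouring epithelial cells, and the catenins tie them to the actin cytoskeleton. The genes described here are 10 symbols chosen for their role in this junction or in its loss: the cadherins CDH1, CDH2 and CDH3, the catenins CTNNA1, CTNNB1 and CTNND1, and 4 genes of the epithelial to mesenchymal transition (EMT), SNAI1, SNAI2, ZEB1 and VIM. They were found by symbol in a table of 26819 genes, which lists 9 of them. CDH2 has no row there and was not analysed here. The cells were of the prostate cancer line C4-2, a castration-resistant derivative of LNCaP, and all of them carried Tet-O-YAP5SA, a doxycycline-inducible YAP1 whose inhibitory phosphorylation sites are mutated. RNA from 3 libraries without doxycycline (Ctrl) was compared with RNA from 3 libraries of cells given doxycycline for 24 hours (Dox), at a dose the labels write as 0.2 mg/ml. The line was not compared with cells lacking the construct, so an effect of doxycycline itself cannot be told apart from one of YAP5SA. The labels do not state whether the 3 replicates of a group came from separate cultures. The p-values therefore describe spread among these libraries, which may be technical.

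In an adherens junction the outer parts of cadherins on adjacent cells bind each other. The inner tail binds beta-catenin (CTNNB1) and p120-catenin (CTNND1), and alpha-catenin (CTNNA1) links beta-catenin to actin. SNAI1, SNAI2 and ZEB1 are zinc finger repressors that bind E-box sequences in the CDH1 promoter, and the intermediate filament protein vimentin (VIM) is the standard mesenchymal marker. In epithelial cells the junction also feeds into the Hippo pathway, since alpha-catenin can hold phosphorylated YAP1 in the cytoplasm.

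Levels are in TPM, reads per gene length scaled to the same total in each library. They can be compared between genes only as far as the exon length used for a gene matches its transcripts. Reads recovered from these values came to 24421801 to 28570558 per library over the 14833 genes tested, those with 1 TPM or more in 3 or more libraries. YAP1 rose from 56.8 ± 3.72 to 269 ± 6.92 TPM (SD, n = 3; limma adjusted p = 6.2e-08), a value that does not separate the construct from the endogenous gene. All 10 luminal prostate markers listed were tested, with summed levels of 5536 to 5581 TPM in Ctrl and 4430.2 to 4481 TPM in Dox. At a limma adjusted p under 0.05, 4 were called higher and 6 lower, against 35.9% and 17.8% of all genes tested. The most abundant of them, KLK3, fell from 3297 ± 69.6 to 1795 ± 17.1 TPM, while TMPRSS2 rose from 344 ± 25.7 to 888 ± 31.1 TPM. Of 14 markers of fibroblasts, smooth muscle, endothelium and immune cells 12 had a row and 1 was tested. Their summed level was 1.81 to 2.30 TPM in Ctrl and 4.55 to 4.99 TPM in Dox, most of it from VWF (1.25 ± 0.116 and 3.74 ± 0.226 TPM). CNN1 and CD3E were at 0 in every Ctrl library and HBB in every Dox library. In bulk RNA, fewer cells expressing a gene and less of its RNA per cell cannot be told apart.

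At a limma adjusted p under 0.05 on log2(TPM + 1), 4 of the 7 tested members were higher with doxycycline (CDH1, CTNNA1, CTNNB1 and CTNND1) and 2 were lower (SNAI1 and VIM). SNAI2 did not pass, and CDH3 and ZEB1 were below the filter. None of the 7 passed the filter through one group alone. Over all genes tested 53.7% were called, 35.9% higher and 17.8% lower, so being called is common in this comparison. For all 7, the 2 groups of libraries had no overlap, with Dox above Ctrl in 4 (40.8% of all genes tested) and below in 3 (21.1%), together 61.9% of genes tested. The median log2 fold change was 0.10 over every gene tested and 0.16 over the 7 members. The direction of small changes depends on the scaling. Of all called genes 66.8% were higher as deposited, 49.4% with median-ratio rescaling and 44.9% with quantile normalization, which moved the median of all genes by -0.10 and -0.13. Median-ratio rescaling gave 3 members higher and 3 lower (background 26.4% and 27.0%), and quantile normalization gave 4 and 3 (23.8% and 29.3%).

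**Figure D1:**
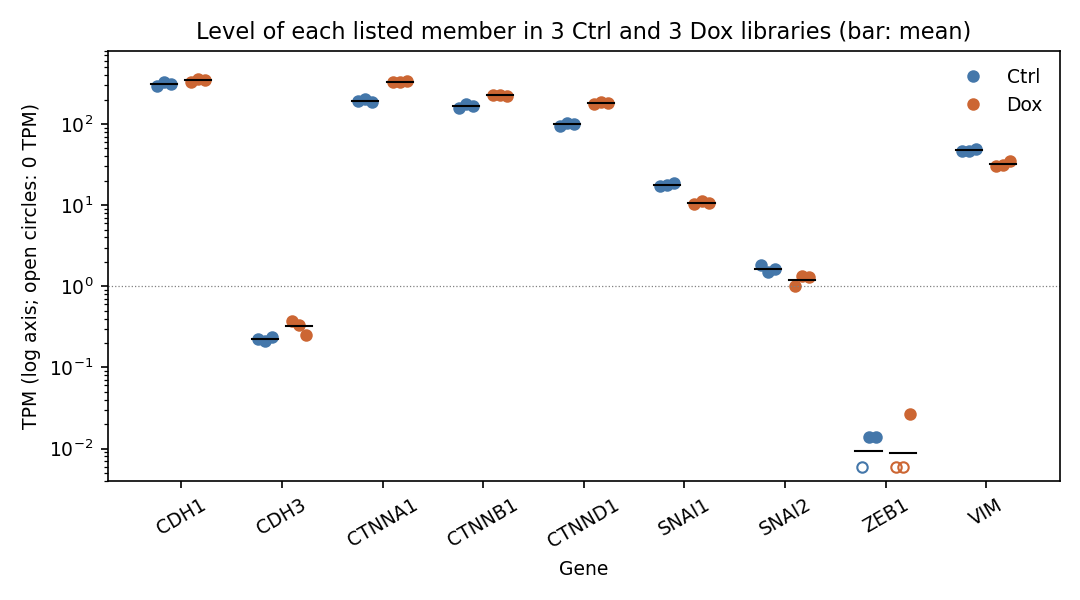
TPM (log axis) of the 9 listed members in each of 3 Ctrl and 3 Dox libraries, with bars at the means, open circles for libraries at 0 TPM and a dotted line at 1 TPM. The 3 catenins lie higher in all Dox libraries than in any Ctrl library, SNAI1 and VIM lie lower, and CDH3 and ZEB1 stay under 1 TPM.

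E-cadherin (CDH1, ENSG00000039068.14), the main cadherin of epithelia, was the most abundant member. It stood at 298, 328 and 307 TPM in the Ctrl libraries and at 334, 359 and 348 TPM in the Dox libraries. Every Dox library was above every Ctrl library, but Dox 1 exceeded Ctrl 2 by only a small margin. The log2 fold change of 0.16 ± 0.04 (SE, limma adjusted p = 0.019) was close to the median of all genes, and 57.3% of tested genes had a lower one. After median-ratio rescaling it was 0.04 ± 0.04 (adjusted p = 0.36), and with limma voom on recovered reads 0.05 (adjusted p = 0.28). The call was also lost without the variance trend (adjusted p = 0.054) and without Ctrl 1 (0.064), Ctrl 3 (0.059) or Dox 2 (0.064). It held after quantile normalization (0.17, adjusted p = 0.019).

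P-cadherin (CDH3, ENSG00000062038.9), found in basal epithelium, was near the limit of detection. It had 10, 9 and 10 reads in Ctrl and 14, 14 and 11 reads in Dox, or 0.223, 0.213 and 0.235 TPM against 0.373, 0.337 and 0.250 TPM. The groups did not overlap, but the ranges nearly touch and rest on 29 and 39 reads in all. In a limma fit without the filter the log2 fold change was 0.11 ± 0.06 (adjusted p = 0.23). CDH1 made up 99.928% ± 0.00618 of the summed CDH1 and CDH3 level in Ctrl and 99.908% ± 0.02004 in Dox (SD, n = 3).

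Over the 13 classical cadherins with a row the CDH1 share was 97.3% ± 0.235 in Ctrl and 96.8% ± 0.0799 in Dox. The next most abundant was CDH24, at 6.19 ± 0.401 and 7.66 ± 0.567 TPM, whose call as higher (log2 fold change 0.27, limma adjusted p = 0.022) ended after median-ratio rescaling (0.12) and quantile normalization (0.39), and without Ctrl 2 (0.060), Dox 2 (0.080) or Dox 3 (0.059). CDH19 went from 0.551 ± 0.0188 to 1.39 ± 0.147 TPM and passed the filter only through the Dox group. These were the 2 of 11 other classical cadherins that were tested. Both were called higher, where 35.9% of all genes tested were, and 1 was after either rescaling. The direction of CDH19 was fixed by the filter, so this count is no result about the list. Among the low ones, chosen after their values were seen, VE-cadherin (CDH5), the cadherin of endothelium, had 0, 0 and 1 reads in Ctrl and 17, 28 and 24 reads in Dox. In the limma fit without the filter CDH5 was called higher (log2 fold change 0.54 ± 0.06, adjusted p = 0.0012). The endothelial marker VWF rose as well, and the part of any endothelial-like cells in these values was not tested. CDH11, a mesenchymal cadherin, had no reads in Ctrl and 5, 5 and 7 reads in Dox (adjusted p = 0.074 in the same fit).

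The 3 catenins rose, each by more than CDH1. Alpha-catenin (CTNNA1, ENSG00000044115.16), the link to actin, stood at 190.1, 202 and 187 TPM in Ctrl and at 330.4, 327 and 336 TPM in Dox. The groups lay far apart relative to their spread, and the level was 1.72-fold higher (log2 fold change 0.78 ± 0.04, limma adjusted p = 1.8e-06). Of all tested genes 93.3% had a lower log2 fold change than CTNNA1.

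p120-catenin (CTNND1, ENSG00000198561.8), which holds cadherin at the membrane, had the largest rise of the 7. It also had the largest change in either direction on the deposited scale, but not after rescaling. The fall of SNAI1 was then larger, with median-ratio rescaling (log2 fold change -0.79 against 0.75) and quantile normalization (-0.86 against 0.79). CTNND1 levels were 94.4, 103 and 98.9 TPM in Ctrl and 176, 187 and 181 TPM in Dox, 1.83-fold higher (log2 fold change 0.87 ± 0.04, adjusted p = 2.6e-06). All Dox libraries were well above all Ctrl libraries, and 94.5% of tested genes had a lower log2 fold change. In the GENCODE annotation CTNND1 overlaps a readthrough gene on the same strand, TMX2-CTNND1, so some of its reads cannot be assigned with certainty. TMX2-CTNND1 was at 133 ± 4.12 and 129.6 ± 3.51 TPM and did not pass the test (log2 fold change -0.04 ± 0.04, adjusted p = 0.38).

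Beta-catenin (CTNNB1, ENSG00000168036.12), which joins the cadherin tail to alpha-catenin and also carries Wnt signals into the nucleus, rose least of the catenins. It stood at 156, 175 and 165 TPM in Ctrl and at 229, 228 and 219.7 TPM in Dox, with no overlap. The level was 1.36-fold higher (log2 fold change 0.45 ± 0.05, adjusted p = 0.00013). The calls of all 3 catenins held under each alternative run, with log2 fold changes after median-ratio rescaling of 0.66 for CTNNA1, 0.75 for CTNND1 and 0.33 for CTNNB1.

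**Figure D2:**
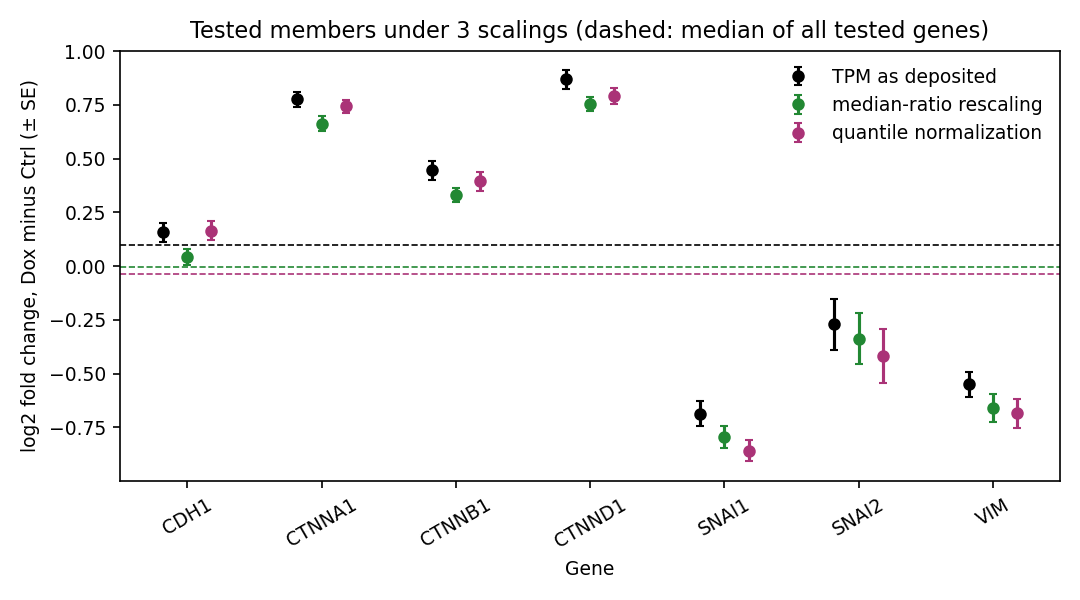
Log2 fold change (Dox minus Ctrl, ± SE, n = 3 per group) of the 7 tested members on the deposited scale and after median-ratio rescaling and quantile normalization. Dashed lines mark the median of all tested genes under each scaling: CDH1 lies near its line on the deposited scale and after median-ratio rescaling, the catenins lie above and SNAI1 and VIM below under all 3.

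Ratios within a library are the same whatever factor a whole library is multiplied by. The CTNNA1 level was 0.638, 0.614 and 0.609 of the CDH1 level in the Ctrl libraries and 0.989, 0.912 and 0.965 of it in the Dox libraries. Thus the CDH1 and CTNNA1 levels, far apart in Ctrl, overlapped between the Dox libraries (334 to 359 and 327 to 336 TPM). The CTNND1 to CDH1 ratio went from 0.318 ± 0.00369 to 0.523 ± 0.00377, and the CTNNB1 to CDH1 ratio from 0.532 ± 0.00723 to 0.651 ± 0.0294 (SD, n = 3). None of these ratios overlapped between groups. The order of levels was CDH1, CTNNA1, CTNNB1, CTNND1, VIM, SNAI1, SNAI2, CDH3 and ZEB1 in Ctrl, with no overlap between neighbours, and the same by mean in Dox, with an overlap only of CDH1 and CTNNA1. Among the catenins themselves, CTNNA1 went from 1.17 ± 0.0446 to 1.47 ± 0.0524 times CTNNB1, and CTNND1 from 0.598 ± 0.00719 to 0.804 ± 0.0298 times CTNNB1.

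**Figure D3:**
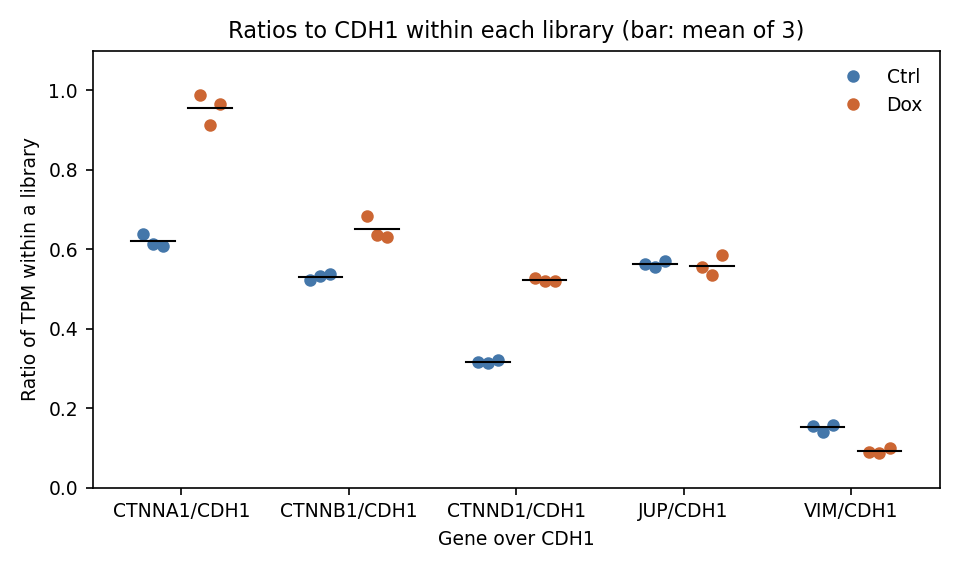
TPM of CTNNA1, CTNNB1, CTNND1, JUP and VIM divided by that of CDH1 in the same library, for 3 Ctrl and 3 Dox libraries, with bars at the means. The 3 catenin ratios are higher in every Dox library, the VIM ratio is lower, and the JUP ratio overlaps between the groups.

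The other catenins and armadillo proteins with a row numbered 9, of which 6 were tested. Of these 3 were higher and none was lower (background 35.9% and 17.8%), with a median log2 fold change of 0.10, as for all genes. Plakoglobin (JUP), the relative of beta-catenin that serves adherens junctions and desmosomes, was at 176 ± 7.40 and 194 ± 9.19 TPM. Its small rise (log2 fold change 0.14 ± 0.05, limma adjusted p = 0.033) did not pass after median-ratio rescaling (0.63), after quantile normalization (0.13), or without Ctrl 1 (0.11), Ctrl 3 (0.079), Dox 2 (0.070) or Dox 3 (0.094). The JUP to CDH1 ratio was 0.564 ± 0.00752 and 0.559 ± 0.0245, with overlap. The p120 relative PKP4 rose 2.08-fold from 24.9 ± 0.824 to 51.7 ± 0.593 TPM (adjusted p = 9.4e-07). CTNNBIP1, an inhibitor that keeps beta-catenin from TCF factors, rose 1.37-fold from 49.6 ± 1.28 to 67.8 ± 1.74 TPM. Neural alpha-catenin (CTNNA2) was below the filter, at 0.955 ± 0.124 and 0.453 ± 0.0954 TPM.

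Of 18 tested actin linkers and nectins 10 rose and 4 fell, also after either rescaling, with a median log2 fold change of 0.32. Background shares were 35.9% and 17.8%. The nectin-like receptor PVR rose 2.88-fold to 66.8 ± 1.38 TPM and nectin-2 (PVRL2) 2.01-fold to 114 ± 4.97 TPM, while nectin-4 (PVRL4) fell from 27.2 ± 0.430 to 20.7 ± 0.173 TPM. AJUBA, a LIM protein that binds alpha-catenin, rose 2.86-fold to 13.8 ± 1.18 TPM, and the actin crosslinker ACTN1 and the actin-binding protein LIMA1 rose 2.08-fold and 2.04-fold. Vinculin (VCL), which binds alpha-catenin under tension, rose 1.27-fold to 131 ± 3.39 TPM (adjusted p = 0.00025). CAMSAP3, which anchors microtubules at the junction, fell from 34.9 ± 0.853 to 22.3 ± 1.38 TPM. The fall of SSX2IP was small (log2 fold change -0.17), and its call was lost without Ctrl 2 (0.054), Ctrl 3 (0.085) or Dox 3 (0.061). Leaving out any 1 of these 3 libraries gave a count of 2 lower genes in the list.

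Of 15 tested genes for the turnover and shedding of cadherin 6 were higher and 2 lower (background 35.9% and 17.8%). The counts were 5 and 4 with median-ratio rescaling (26.4% and 27.0%) and 4 and 4 with quantile normalization (23.8% and 29.3%). All lie near the background shares. ADAM10, the protease that sheds the outer part of E-cadherin, rose 1.90-fold from 62.9 ± 3.66 to 119.5 ± 2.31 TPM (limma adjusted p = 3.4e-06). The receptor phosphatases PTPRM and PTPRK rose 1.45-fold and 1.59-fold from low levels. CBLL1, the ubiquitin ligase known as Hakai that targets E-cadherin, fell from 30.02 ± 1.65 to 22.6 ± 1.03 TPM (adjusted p = 0.00074), and the trafficking GTPase ARF6 fell from 221 ± 11.8 to 187 ± 1.54 TPM.

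Snail (SNAI1, ENSG00000124216.3), a repressor of CDH1, was the most abundant of the 3 EMT repressors. Its levels were 17.1, 17.9 and 18.6 TPM in Ctrl and 10.4, 11.3 and 10.5 TPM in Dox, from 255 to 267 and from 131 to 158 reads. The Dox libraries lay tightly together below all Ctrl libraries, 1.67-fold lower (log2 fold change -0.69 ± 0.06, limma adjusted p = 4.9e-05). Only 2.85% of tested genes had a lower log2 fold change, and the fall was larger after median-ratio rescaling (-0.79) and quantile normalization (-0.86).

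Slug (SNAI2, ENSG00000019549.4), its close relative, was far less abundant and was measured with 17 to 37 reads per library. It stood at 1.81, 1.51 and 1.65 TPM in Ctrl and at 0.995, 1.32 and 1.30 TPM in Dox. Every Dox library was below every Ctrl library, with Dox 1 lowest, but the difference did not pass on the deposited scale (log2 fold change -0.27 ± 0.12, adjusted p = 0.088). It passed after median-ratio rescaling (-0.34, adjusted p = 0.044), after quantile normalization (-0.42, 0.025) and without the variance trend (0.028), and did not with limma voom on reads (-0.55, 0.060). The SNAI1 to SNAI2 ratio overlapped between the groups, at 10.9 ± 1.26 and 9.04 ± 1.23.

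ZEB1 (ENSG00000148516.17) was at the floor in both groups, with 0, 1 and 1 reads in Ctrl and 0, 0 and 2 reads in Dox. All values, at most 0.0266 TPM, lie under the level of 3 reads on this gene, 0.0393 to 0.0470 TPM depending on the library, so no fold is given and no difference was detectable at this depth. A transcript annotated on the opposite strand, ZEB1-AS1, was at 2.85 ± 0.311 and 3.55 ± 0.353 TPM and did not pass the test (adjusted p = 0.080).

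Vimentin (VIM, ENSG00000026025.9) fell with doxycycline. It stood at 46.7, 46.6 and 48.7 TPM in Ctrl and at 29.9, 31.3 and 34.9 TPM in Dox. No library overlapped, Dox 3 being nearest to Ctrl, and the level was 1.48-fold lower (log2 fold change -0.55 ± 0.06, limma adjusted p = 0.00018). The VIM to CDH1 ratio went from 0.152 ± 0.00917 to 0.0924 ± 0.00689 and the SNAI1 to CDH1 ratio from 0.0576 ± 0.00298 to 0.0309 ± 0.000676, both without overlap. VIM overlaps the antisense gene VIM-AS1, which also fell, from 4.48 ± 0.260 to 3.39 ± 0.322 TPM (adjusted p = 0.018), and whether reads were counted by strand is not stated in the labels, so reads of the pair cannot be told apart. The fibroblast and mural cell markers with a row were at 0.0661 TPM or less in every library for DCN, 0.0412 for PDGFRA, 0.222 for LUM and 0.233 for PDGFRB. PDGFRB was lower in every Dox library than in any Ctrl library, at 0.185 ± 0.0462 and 0.0731 ± 0.0203 TPM (adjusted p = 0.074 in the limma fit without the filter), and the part of such cells in the VIM values was not tested.

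RefSeq promoter windows (250 bases before to 50 after an annotated start, GRCh38.p14) were used for 5 of the 10 symbols, CDH2, CTNNA1, CTNNB1, VIM and ZEB1. Not every chromosome was included in this search of members. No window was available for CDH1, CDH3, CTNND1 and SNAI1, so E-boxes in the CDH1 promoter could not be looked for. Windows are shown because CTNNA1 and CTNNB1 rose together, VIM fell and ZEB1 was near 0. The 6-base motifs searched on both strands were the E-box CAGGTG or CACCTG bound by SNAI and ZEB proteins, and the TEAD motif GGAATG or CATTCC bound by the DNA-binding partners of YAP1. Matches are in capitals, all other bases in lower case. The CTNNA1 window (chr5:138753175-138753474, plus strand) is the most upstream of 4, that of CTNNB1 is chr3:41199255-41199554 (plus strand) and that of VIM chr10:17227991-17228290 (plus strand). Windows 1 and 3 of 7 of ZEB1, the only ones with a match, are chr10:31318167-31318466 and chr10:31318966-31319265 (plus strand).
CTNNA1: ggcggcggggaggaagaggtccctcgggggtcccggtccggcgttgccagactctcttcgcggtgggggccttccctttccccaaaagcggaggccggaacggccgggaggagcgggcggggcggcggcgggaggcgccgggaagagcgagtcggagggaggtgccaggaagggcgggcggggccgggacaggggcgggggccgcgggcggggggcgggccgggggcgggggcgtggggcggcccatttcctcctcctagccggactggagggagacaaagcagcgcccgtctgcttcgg
CTNNB1: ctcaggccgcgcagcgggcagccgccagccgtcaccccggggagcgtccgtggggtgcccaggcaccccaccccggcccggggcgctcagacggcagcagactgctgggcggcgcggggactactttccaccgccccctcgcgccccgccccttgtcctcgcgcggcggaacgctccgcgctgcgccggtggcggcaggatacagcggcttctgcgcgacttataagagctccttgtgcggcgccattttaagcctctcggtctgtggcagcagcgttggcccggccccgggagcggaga
VIM: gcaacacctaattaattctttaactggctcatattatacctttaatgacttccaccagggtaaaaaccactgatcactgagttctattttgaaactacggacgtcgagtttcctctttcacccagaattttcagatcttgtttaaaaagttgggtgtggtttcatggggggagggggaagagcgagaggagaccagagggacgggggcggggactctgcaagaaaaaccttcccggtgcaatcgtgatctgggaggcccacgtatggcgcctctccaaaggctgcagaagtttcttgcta
ZEB1 window 1: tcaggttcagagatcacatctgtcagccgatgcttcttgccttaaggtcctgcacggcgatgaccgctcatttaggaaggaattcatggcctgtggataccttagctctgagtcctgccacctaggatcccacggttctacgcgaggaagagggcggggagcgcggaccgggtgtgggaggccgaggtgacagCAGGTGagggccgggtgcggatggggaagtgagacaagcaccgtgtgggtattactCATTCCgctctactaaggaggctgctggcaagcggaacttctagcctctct
ZEB1 window 3: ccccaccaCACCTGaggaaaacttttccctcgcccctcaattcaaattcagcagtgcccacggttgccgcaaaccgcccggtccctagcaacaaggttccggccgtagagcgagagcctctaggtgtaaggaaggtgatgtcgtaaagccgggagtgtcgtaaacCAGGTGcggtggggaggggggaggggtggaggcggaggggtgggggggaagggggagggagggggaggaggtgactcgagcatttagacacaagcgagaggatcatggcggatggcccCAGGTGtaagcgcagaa

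In those 15 windows the E-box was found in 2, both of ZEB1, and the TEAD motif in 1, window 1 of ZEB1. In window 1 the E-box begins 57 bases and the TEAD motif 1 base before the start, and window 3 holds 3 E-boxes. Over all 35116 RefSeq windows of that length 20.6% held the E-box and 14.0% the TEAD motif. The CTNNA1, CTNNB1 and VIM windows printed hold neither motif, which says only that these letters are not in these 300 bases. The CTNNA1 and CTNNB1 windows have a GC content of 77.7% and 74.0%, and the VIM window of 48.0%.

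Among other EMT transcription factors 8 of 12 with a row were tested. Of these 2 were higher and 3 lower (background 35.9% and 17.8%), with a median log2 fold change of 0.02. TWIST1, which with SNAI1 is a classical inducer of EMT, was at 7.46 ± 0.926 and 8.21 ± 0.104 TPM and did not pass (limma adjusted p = 0.24). The list's largest changes were those of ID1 and ID2, which like ID3 encode inhibitors of E-box-binding bHLH factors. ID1 rose 5.08-fold from 82.6 ± 3.43 to 419 ± 59.5 TPM and ID3 1.51-fold, whereas ID2 fell from 23.1 ± 0.674 to 9.46 ± 0.158 TPM (adjusted p = 1.1e-06). SOX9 fell from 6.78 ± 0.680 to 3.23 ± 0.156 TPM. The call of SNAI3, lower by this test (adjusted p = 0.020), was lost without the filter (0.054) and without Ctrl 1 (0.062), Ctrl 2 (0.069) or Dox 3 (0.050).

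Of 13 tested cofactors and regulators of SNAI and ZEB proteins 2 were higher and 1 lower on the deposited scale, where 53.7% of all genes were called, and their median log2 fold change was -0.02. After either rescaling 2 were higher and 8 lower (background 26.4% and 27.0% with median-ratio rescaling, 23.8% and 29.3% with quantile normalization). The corepressor CTBP2 rose from 44.0 ± 2.01 to 65.7 ± 0.759 TPM, and CTBP1 was at 25.6 ± 0.488 and 25.3 ± 0.560 TPM. LATS2, a Hippo kinase that also phosphorylates SNAI1, rose 4.16-fold to 73.4 ± 4.20 TPM, and the kinase PRKD1 fell from 15.9 ± 1.63 to 8.76 ± 0.655 TPM.

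Of 10 tested mesenchymal products 6 were higher and 1 lower (background 35.9% and 17.8%). The counts were 3 and 1 with median-ratio rescaling (26.4% and 27.0%) and 4 and 2 with quantile normalization (23.8% and 29.3%). On the deposited scale the list's median log2 fold change was 0.24. Thrombospondin-1 (THBS1), a secreted matrix protein, rose most, 7.93-fold to 565 ± 22.5 TPM. NT5E, a cell surface nucleotidase, went from 0.424 ± 0.169 to 2.31 ± 0.280 TPM, passing the filter only through the Dox group, and S100A4 rose 1.85-fold. LOX, a collagen crosslinking enzyme, fell like VIM, from 19.2 ± 0.779 to 10.8 ± 0.228 TPM. Fibronectin (FN1), at 372 ± 17.0 and 437 ± 20.1 TPM, was called higher (limma adjusted p = 0.0041), a call lost after median-ratio rescaling (0.055). COL1A1 and ITGA5 were also called higher, and both calls ended after either rescaling. Other mesenchymal products were below the filter, among them SPARC (0.145 ± 0.0451 and 0.0974 ± 0.0686 TPM) and COL3A1 (0.0167 ± 0.0164 and 0.0111 ± 0.0193 TPM), which overlapped between groups. In the limma fit without the filter the matrix protein TNC was called higher, at 0.227 ± 0.0398 and 0.858 ± 0.0784 TPM (adjusted p = 0.0014), as was the protease MMP14, at 0.0956 ± 0.0179 and 0.219 ± 0.0215 TPM (0.040). TGFBI was at 0.172 ± 0.0440 and 0.325 ± 0.0522 TPM without overlap (0.071).

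All 28 genes of the epithelial programme with a row were tested, and 19 were higher and 6 lower (background 35.9% and 17.8%). The counts were 15 and 8 with median-ratio rescaling (26.4% and 27.0%) and 16 and 7 with quantile normalization (23.8% and 29.3%). On the deposited scale the list's median log2 fold change was 0.27. KLF5, an epithelial transcription factor, rose 10.0-fold from 4.65 ± 0.308 to 46.6 ± 5.20 TPM (limma adjusted p = 1.7e-07). The polarity scaffold INADL (PATJ) rose 2.69-fold, GRHL1 1.87-fold and the protease inhibitor SPINT1 1.65-fold to 385 ± 14.3 TPM. The fallers included OVOL1, a repressor of EMT genes, from 33.3 ± 1.56 to 12.9 ± 0.199 TPM, KLF4 from 8.215 ± 0.5004 to 4.79 ± 0.246 TPM, CLDN3 from 148 ± 1.01 to 94.6 ± 14.6 TPM, and EHF from 694 ± 31.9 to 517 ± 13.0 TPM.

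Of 12 tested nuclear partners and target genes of beta-catenin 8 were called higher and 3 lower (background 35.9% and 17.8%). The counts were 5 and 3 with median-ratio rescaling (26.4% and 27.0%) and 6 and 3 with quantile normalization (23.8% and 29.3%). The ubiquitin ligases ZNRF3 and RNF43, both negative regulators of Wnt receptors, moved in opposite directions, ZNRF3 from 2.54 ± 0.267 to 6.85 ± 0.404 TPM and RNF43 from 9.85 ± 0.713 to 5.72 ± 0.266 TPM. TCF7L2, the main DNA-binding partner in epithelia, rose 1.63-fold to 9.35 ± 0.197 TPM, while LEF1 fell to 1.125 ± 0.0450 TPM, a call lost without Ctrl 3 (0.083) or Dox 2 (0.058). AXIN2, a standard beta-catenin target, was at 2.42 ± 0.404 and 3.42 ± 0.470 TPM, and its call (adjusted p = 0.039) ended after median-ratio rescaling (0.10), after quantile normalization (0.20), and without Ctrl 2 (0.11), Ctrl 3 (0.076), Dox 1 (0.10) or Dox 2 (0.12). Among the 6 tested intermediate filament relatives of VIM, 2 rose and 2 fell (background 35.9% and 17.8%), and 2 and 4 after either rescaling. Lamin A (LMNA) rose 2.10-fold to 97.2 ± 5.22 TPM and SYNM 2.59-fold to 4.53 ± 0.120 TPM, and PRPH fell from 8.80 ± 0.696 to 5.70 ± 1.06 TPM, as did NEFL, which passed the filter only through the Ctrl group.

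**Figure D4:**
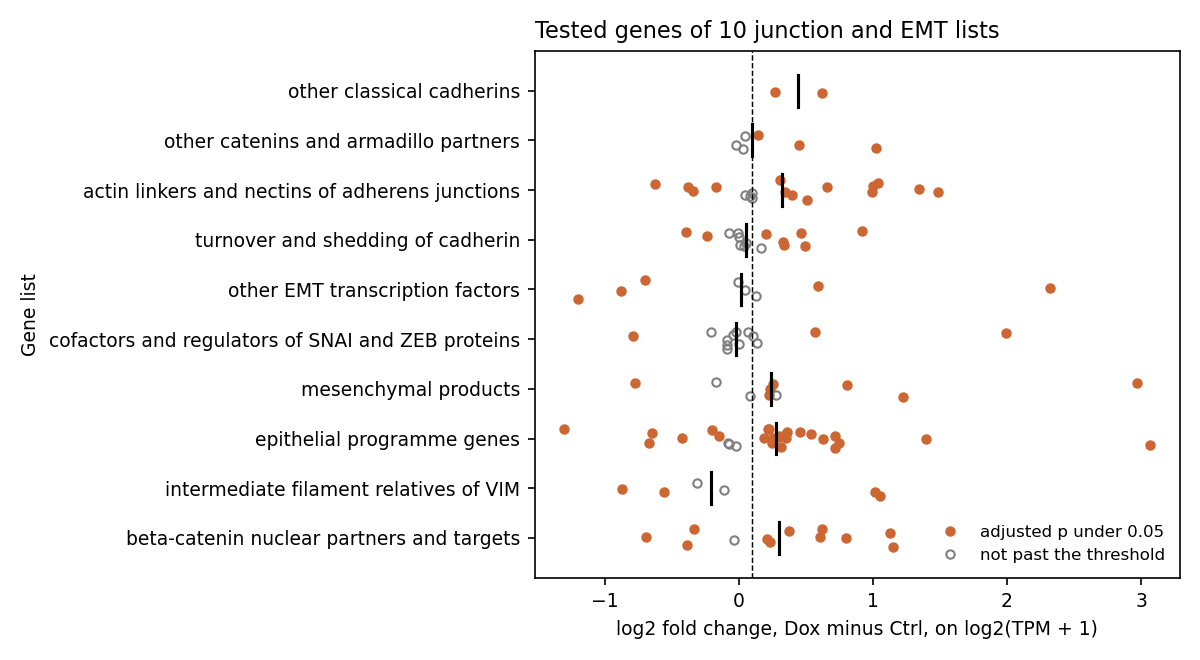
Log2 fold change on log2(TPM + 1) of each tested gene in 10 lists of junction and EMT genes, filled where the limma adjusted p is under 0.05. Black ticks are list medians and the dashed line is the median of all tested genes (0.10). The medians of the actin linkers (0.32), beta-catenin partners and targets (0.30), epithelial genes (0.27) and mesenchymal products (0.24) lie to its right. In the mesenchymal list 1 of 10 tested genes passed the filter only through the Dox group. The median of the other classical cadherins (0.44) rests on 2 tested genes, 1 of them tested only through the Dox group.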

How the data were processed

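Stranded mRNA libraries of 6 samples were grouped by the sample titles into 3 Ctrl and 3 Dox. Per the submitters' processing notes, FastQC 0.11.2, STAR 2.5.3a, featureCounts and edgeR were used with build hg19. The annotation release and the strand setting were not given in the sources used here. The authors deposited 1 table in TPM with GENCODE identifiers. Each library sums to 1000000, so values are relative within it.

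Members were found by symbol, the first row where a symbol repeats (222 repeated rows). The test covered 14833 genes that reached 1 TPM in 3 or more libraries. It was limma 3.58.1 (R 4.3.3; lmFit, then eBayes with a trend), applied two-sided to log2(TPM + 1), and p-values were adjusted over all those genes by the Benjamini-Hochberg method. Fold changes on this scale understate the change of low genes, and folds without "log2" are ratios of mean TPM. Whole reads were recovered from TPM, exon length (GENCODE 29 or, failing that, the smallest length giving whole reads in all libraries, tolerance 0.01 reads) and a constant per library, for 99.97% of tested genes. If all reads of a gene share a divisor, its reads are too low by that factor. Floors are 3 reads and cover counting error only. Positions are given for RefSeq promoters only, since the annotation used here is GRCh38. Alternatives were a pseudocount of 0.1, no filter, a mean of at least 5 TPM, median-ratio and quantile scaling, no trend, a replicate block, voom on reads, and leaving out each library. The members and the lists were chosen with earlier results of these data known. From each list the up to 4 largest called rises and falls without overlap were open to be named, not all of them are, and other list genes were chosen after their values were seen. PVRL1 to PVRL4, MLLT4 and INADL are listed under these older symbols.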

Additional observations from a re-analysis of the deposited data

How the results depend on the processing

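Across the 14 alternatives, CTNNA1, CTNNB1, CTNND1, SNAI1 and VIM kept their direction and call wherever fitted. CDH1 lost its call after median-ratio rescaling (log2 fold change 0.043), with voom on recovered reads (0.0502) and without the variance trend (0.16), and ranged from 0.13 to 0.20 when libraries were left out. SNAI2 passed after median-ratio rescaling (-0.34), after quantile normalization (-0.42) and without the variance trend (-0.27), and ranged from -0.31 to -0.20 when libraries were left out. With a mean of at least 5 TPM it was not fitted. The causes were not tested. The CDH1 share of cadherin TPM was 97.3% in Ctrl and 96.8% in Dox when all listed classical cadherins were summed. With the replicate block 7841 genes were called against 7959 without it, and no call of a member changed. The correlation of same-numbered libraries' deviations was -0.01 for number 1, 0.06 for number 2 and 0.003 for number 3, so the numbers were not taken to pair the libraries. Of 336 recomputed list counts, 29 moved by over 1.5 times, or to or from 0. CDH3, SNAI2 and ZEB1 are limited by depth.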
